A study of Sus scrofa with 12 samples.

Results

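Extracellular vesicles, the membrane particles that cells shed, were compared between a perfusion bioreactor and flat tissue culture plates by sequencing their microRNAs (miRNAs). The comparison takes the 4 perfusion libraries and the 4 plate libraries, 8 of the 12 libraries of the series, paired by donor number over all 252 mature miRNAs listed. The vesicle donors were bone marrow mesenchymal stromal cells, the adherent cells that can form bone, cartilage and fat, of wild-type juvenile Yucatan minipigs, grown on plates to passage 3 and frozen before use. Each of 4 donors gave 1 library per culture. The plate group was seeded at 5000 cells/cm2 on treated 15 cm plates in DMEM with 10% fetal bovine serum and antibiotics. In the perfusion group the cells sat on bioscaffolds over which medium circulated at 4 mL/min. The labels give neither the scaffold material nor the serum content of the circulating medium, so flow, scaffold and medium cannot be told apart. Vesicles were pelleted from conditioned medium by differential ultracentrifugation.

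A miRNA is cut from a hairpin precursor, whose 5p and 3p arms can each yield a mature strand, and the strand loaded into an Argonaute protein represses messages that pair with its seed. Several hairpins are often carried on 1 primary transcript. Vesicle miRNAs come from the releasing cells and from whatever other vesicles or RNA-bearing particles are in the medium, and several of them mark a cell type: miR-451 and miR-144 are made in red blood cell precursors, miR-122 in hepatocytes and miR-126 in endothelium. Roles named here are those known from human and mouse unless another species is given. No miRNA sequence was used here, and levels are normalized read counts, reads divided by 1 factor per library, without scaling by length.

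The plate libraries held 264407 (donor 2) to 3253003 reads (donor 4) and the perfusion libraries 671012 to 1614726, and the smallest values above 0 stood for 2 reads, or 5 in plate donor 4. Between 2 and 28 miRNAs per plate library and 7 to 14 per perfusion library were listed at 0. Differences are log2 fold changes, perfusion minus plate, of the normalized read count + 1 with their standard error, from a limma fit with donor as a block, and a call is a Benjamini-Hochberg adjusted p under 0.05 over all 252. The 4 values given for a culture stand in the order of donors 1, 2, 3 and 4. In that fit 64 of 252 miRNAs (25.4%) were called, 32 higher (12.7%) and 32 lower (12.7%) in perfusion. These shares are the background for each count of list members below, and no list was tested against them. The same sign in all 4 donors was seen for 63 of the 64 calls, against 112 of all 252 miRNAs (44.4%), and the exception was miR-26a. Values of both cultures did not overlap for 49 of the calls, against 58 of all 252 (23.0%). The calls were chosen on these same values, so neither count is separate support for them. Differences went both ways, with a median log2 fold change of -0.06 over all 252, and the median size fell from 1.29 under a mean of 10 to 0.35 at 10000 and over. Calls came at every level, with 1 of 21 miRNAs under a mean of 10, 29 of 92 from 10 to 100, 19 of 78 from 100 to 1000, 11 of 44 from 1000 to 10000 and 4 of 17 above.

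**Figure D1:**
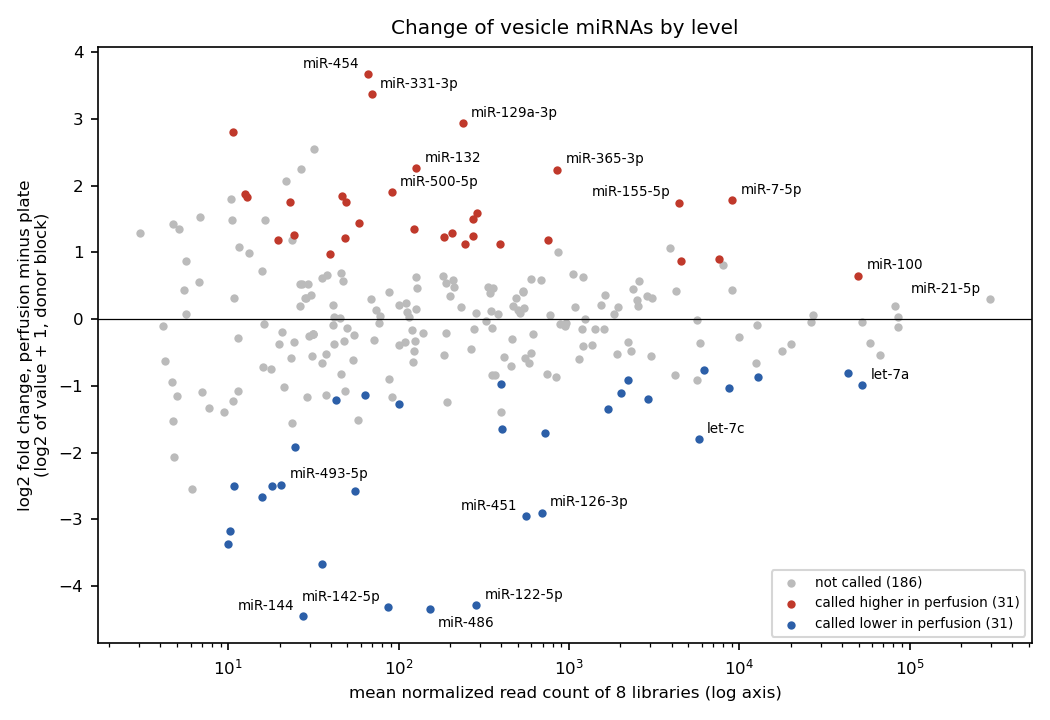
Each point is 1 miRNA, with its mean normalized read count over the 8 libraries on a log axis and its log2 fold change, perfusion minus plate, on the other; colour marks calls at an adjusted p of 0.05, and miRNAs at 0 in every library of 1 culture are left out. Calls lie on both sides of 0, and those furthest below 0 include miR-144, miR-486, miR-142-5p and miR-122-5p between -4.45 and -4.29.

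Of the 10 most abundant miRNAs 3 were called, a share near the 25.4% of all 252. miR-21-5p, the leading miRNA of stromal cells, stood at 170609, 325087, 282873 and 290589 on plates and 313032, 353218, 282810.0 and 332201 in perfusion, with a difference of 0.30 ± 0.16 that was not called. It was higher in 3 of 4 donors, and the cultures overlapped. Among the other 9, let-7a and miR-26a were lower and miR-100 was higher, and the differences of let-7i-5p (0.04 ± 0.15), miR-148a-3p (-0.11 ± 0.17), miR-143-3p (0.20 ± 0.18), miR-27b-3p (-0.53 ± 0.22), let-7f-5p (-0.35 ± 0.20) and miR-199a-3p (-0.05 ± 0.17) were not called. Of 15 stromal markers 1 was called, miR-100, against 25.4% of all 252 miRNAs, and their median log2 fold change was 0.04. Their summed normalized read count was 528351, 726495, 730357 and 708813 on plates and 670908, 797096, 695453 and 762163 in perfusion. miR-199a-3p and miR-199b-3p, both among the 15, stood in a near-constant ratio. They are therefore not separate measurements in the count, median or sum. miR-100, a repressor of mTOR carried on 1 transcript with a let-7a and a miR-125b hairpin, stood at 56289, 44006, 22655 and 33960.5 on plates and 63300.1, 84184, 39693 and 55216 in perfusion. Every donor rose, by 0.65 ± 0.17 overall (limma adjusted p = 0.0170), although plate donor 1 stood above perfusion donors 3 and 4. The call ended without plate donors 2 or 3 or perfusion donors 2 or 4 (0.56 to 0.65), without the donor block or in a fit of the 8 libraries alone.

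Red blood cell and endothelial markers were lower in perfusion, as were 4 of 6 white blood cell and 2 of 4 liver and gut markers. All 3 red blood cell markers were called lower, against 12.7% of all 252 miRNAs. Their median log2 fold change was -4.34 against -0.06 for all miRNAs. Their summed level was 2528, 1498, 666 and 568 on plates and 28.9, 334, 198 and 87.7 in perfusion. The cultures did not overlap, and donor 1 held both the highest plate and the lowest perfusion sum. miR-451, which is cut by Argonaute 2 rather than Dicer, stood at 1925, 1104, 499 and 364 on plates and 23.9, 299, 181 and 78.0 in perfusion, a difference of -2.95 ± 0.70 (limma adjusted p = 0.0120) that was -1.94 without perfusion donor 1. Its cluster partner miR-144 stood at 117, 39.4, 30.8 and 24.4 on plates and 1.45, 5.83, 0 and 0 in perfusion, so that 2 perfusion libraries listed it at 0. The difference of miR-144 was -4.45 ± 0.50 and shrank to -2.23 with a pseudocount of 10. miR-486, an erythroid and muscle miRNA, stood at 486, 355, 137 and 179.5 on plates and 3.62, 29.1, 16.2 and 9.75 in perfusion (-4.34 ± 0.70, limma adjusted p = 0.00172). In a bulk vesicle sample, fewer vesicles carrying a miRNA and less of it per vesicle cannot be told apart.

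Of 6 white blood cell markers 1 was higher and 4 lower, against 12.7% called in each direction of all 252 miRNAs. Their median was -3.12, or -2.62 with miR-223 set to 3 reads per perfusion library. The summed level of the 6 went the other way, at 4211, 2719.6, 1442 and 1584 on plates and 6710.0, 9907, 4188 and 6334 in perfusion, higher in perfusion in every donor, since miR-155-5p, the member that rose, was the most abundant of the 6 in all 8 libraries. Both arms of miR-142, a hairpin of blood-forming cells, fell. miR-142-5p stood at 286, 266, 68.5 and 51.7 on plates and 3.62, 9.71, 8.12 and 3.00 in perfusion, and miR-142-3p at 108, 103, 35.2 and 19.5 on plates and 2.89, 9.71, 6.77 and 0 in perfusion. Their differences were -4.31 ± 0.54 and -3.67 ± 0.56 (-2.18 for miR-142-3p with a pseudocount of 10), and neither overlapped between cultures. The myeloid miR-223 stood at 92, 6, 25 and 37 reads on plates, which is 70.7, 29.6, 15.7 and 15.1 normalized read counts, and at 0 in every perfusion library. The lymphocyte miRNA miR-150 stood at 236, 88.7, 20.7 and 44.4 on plates and 3.62, 31.1, 13.5 and 6.75 in perfusion, with plate donor 3 below perfusion donor 2. Its difference was -2.57 ± 0.72 (limma adjusted p = 0.0233), -1.53 without perfusion donor 1, and the call ended without plate donors 1 or 4 or perfusion donor 4 (-2.67 to -2.06). miR-342, at -0.66 ± 0.39, was not called. miR-155-5p is described with the inflammation miRNAs.

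Both endothelial markers, the arms of miR-126, fell (median -2.78). miR-126-3p, which sustains growth factor signalling in vessels, stood at 2123, 1557, 564 and 693 on plates and 119, 142, 185 and 130.5 in perfusion, a difference of -2.90 ± 0.46 (limma adjusted p = 0.00168). The 4 perfusion libraries lay close together while the plate libraries differed widely. miR-126-5p stood at 61.4, 14.8, 18.8 and 16.3 on plates and 0, 5.83, 5.41 and 3.75 in perfusion, with a difference of -2.67 ± 0.72 that was -1.33 with a pseudocount of 10 and -1.59 without perfusion donor 1. Its call ended without plate donor 1 (-2.09), in a fit of the 8 libraries alone or with a pseudocount of 0.1 (-3.62). Of 4 liver and gut markers 2 were lower, against 12.7% called lower of all 252 miRNAs, with a median of -2.20. The liver miRNA miR-122-5p stood at 1088, 818, 141 and 154 on plates and 7.24, 40.8, 18.9 and 18.7 in perfusion (-4.29 ± 0.66, limma adjusted p = 0.00155). Plate donors 1 and 2 stood well above plate donors 3 and 4, as they did for the red blood cell sum. miR-194a-5p, a gut and liver miRNA, stood at 33.0, 19.7, 13.8 and 8.96 on plates and 0, 3.88, 0 and 2.25 in perfusion (-3.17 ± 0.79, and -1.27 with a pseudocount of 10), and the call ended without plate donor 3 (-3.01). miR-192 (-1.14 ± 0.61) and miR-215 (-1.22 ± 0.56) were not called. Strands released by the stromal cells and strands carried in by other cells or the medium cannot be told apart in these files.

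**Figure D2:**
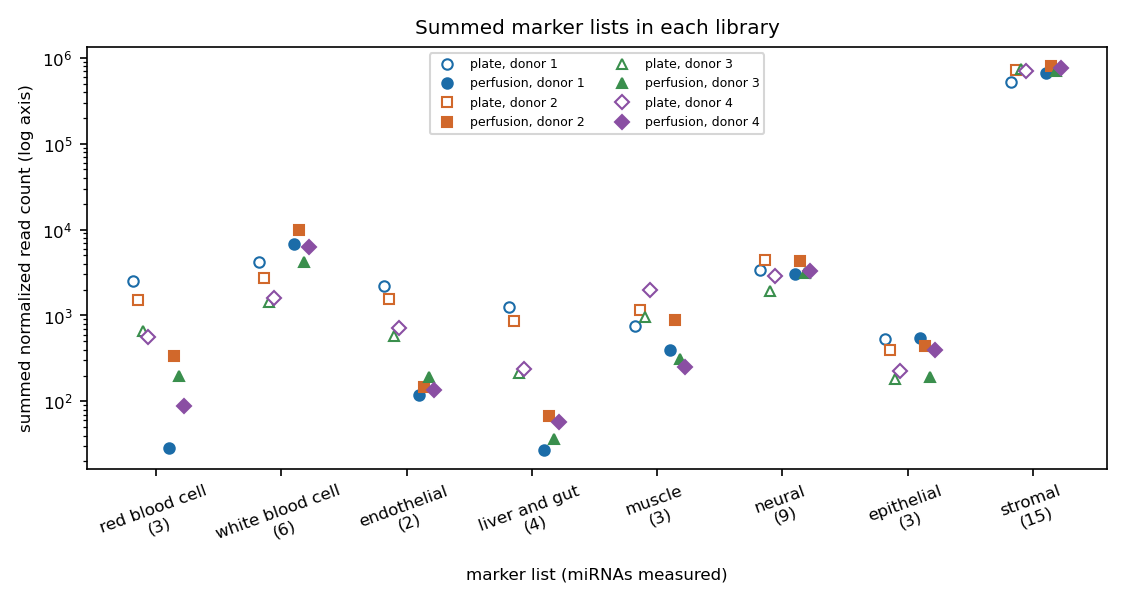
The summed normalized read count of each marker list is plotted on a log axis for every library, open symbols for plates and filled for perfusion, with 1 symbol shape per donor. The red blood cell, endothelial and liver and gut sums are lower in all 4 perfusion libraries than in any plate library, the white blood cell sum is higher in perfusion in each donor, and the stromal sums overlap.

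Of 3 striated muscle markers 2 fell, against 12.7% called lower of all 252 miRNAs, with a median of -1.14. The cardiac and skeletal miR-1 stood at 652, 1000.1, 825 and 1862 on plates and 297, 775, 219 and 173 in perfusion, where perfusion donor 2 lay above plate donor 1, and its difference was -1.71 ± 0.49 (limma adjusted p = 0.0275). It was -1.06 without plate donor 4. miR-499-5p, from an intron of a myosin gene, stood at 60.7, 113, 86.7 and 89.2 on plates and 42.7, 38.8, 28.4 and 45.7 in perfusion (-1.14 ± 0.30). These calls ended for miR-1 without plate donor 3 or perfusion donors 1, 3 or 4 (-1.69 to -1.49), and for miR-499-5p without plate donors 2 or 3 or perfusion donors 2 or 3 (-1.12 to -0.96). The third marker, miR-133a-3p, differed by 0.70 ± 0.32 and was not called. None of 3 epithelial markers was called (median 0.25), and 1 of 9 neural markers was, miR-129a-3p. The 9 are fewer measurements than strands, since miR-9, miR-9-1 and miR-9-2 held identical values, miR-129b nearly those of miR-129a-5p, and miR-218b stood in a near-constant ratio to miR-218-5p, so no median is given.

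Among the rises were miR-210, miR-155-5p and miR-132. miR-210, the miRNA most closely tied to low oxygen through HIF, stood at 77.6, 163, 179 and 164 on plates and 448, 332, 363 and 449.9 in perfusion. Every perfusion value exceeded every plate value, and plate donor 1 was the lowest of all. The rise was 1.50 ± 0.33 (limma adjusted p = 0.00745). Of 6 inflammation miRNAs 2 rose, miR-155-5p and miR-132, and miR-223 was lower, with a median of -0.44. Over all 252 miRNAs 25.4% were called in either direction. miR-155-5p, induced when immune and stromal cells meet inflammatory signals, stood at 3433, 2222, 1249 and 1418 on plates and 6641, 9848, 4140.5 and 6299 in perfusion, a rise of 1.74 ± 0.33 (limma adjusted p = 0.00464) with no overlap. miR-132, induced by CREB in neurons and by inflammatory signals in endothelium, stood at 63.8, 14.8, 62.8 and 27.7 on plates and 271, 95.2, 96.1 and 385 in perfusion and rose by 2.26 ± 0.47. Donor 3 rose least, from 62.8 to 96.1. The differences of miR-146a-5p (-1.24 ± 0.57) and miR-146b (-1.17 ± 0.90), which restrain NF-kB signalling, were not called.

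miR-7-5p, which has 2 gene loci and is known in neurons and endocrine cells as a repressor of growth factor signalling, was the most abundant miRNA with a rise above 1 on the log2 scale. It stood at 4138, 5488, 3100.3 and 2099.9 on plates and 14392, 27006, 4486 and 12064 in perfusion and rose by 1.79 ± 0.33 (limma adjusted p = 0.00399). Perfusion donor 3 lay below plate donor 2, so the cultures overlapped although all 4 donors rose. miR-129a-3p, of a brain-rich hairpin, stood at 69.9, 14.8, 46.5 and 94.0 on plates and 400.1, 134, 671 and 472 in perfusion, which is 2.93 ± 0.56 (limma adjusted p = 0.00464). miR-454, which shares its seed with the miR-130 and miR-301 miRNAs, stood at 19.2, 0, 21.4 and 15.9 on plates and 116, 115, 123 and 118 in perfusion. The perfusion values were nearly equal, and plate donor 2, the shallowest library, listed it at 0. Its rise was 3.67 ± 0.68 (limma adjusted p = 0.00399), at 6.85 in donor 2 against 2.54, 2.47 and 2.82 in donors 1, 3 and 4. Of the same family, miR-130a (-0.13 ± 0.30) and miR-130b-3p (0.21 ± 0.32) were not called (family median 0.21). miR-331-3p was likewise at 0 in plate donor 2, at 36.9, 0, 5.65 and 57.8 on plates and 135, 101, 100.1 and 120.0 in perfusion. Its difference of 3.37 ± 0.84 was 2.20 without that library, and the call ended without plate donor 3 or perfusion donor 2 (2.89 to 3.21).

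miR-365-3p, a miRNA induced by mechanical load in chicken chondrocytes, stood at 582, 236, 203 and 212 on plates and 2318, 1031, 1057 and 1183 in perfusion. Donor 1 was the highest in both cultures, and no perfusion value reached down to a plate value. The rise was 2.24 ± 0.51 (limma adjusted p = 0.00907), and its call ended without donor 3 in all 3 culture methods (2.20). Of 14 miRNAs known to respond to fluid shear in endothelium 3 rose, miR-92a, miR-155-5p and miR-365-3p, and miR-126-3p fell, a share near the 25.4% of all miRNAs, with a list median of 0.25. The others include miR-143-3p, miR-145-5p (0.36 ± 0.29), miR-10a-5p (-0.52 ± 0.38) and miR-23b (0.82 ± 0.31), none called. In the miR-500 cluster of the X chromosome 2 of 5 strands rose, against 12.7% called higher of all 252. miR-500-5p stood at 32.3, 29.6, 48.4 and 40.3 on plates and 106, 126, 188 and 156 in perfusion and rose by 1.90 ± 0.26 (limma adjusted p = 0.000795), and miR-362 stood at 24.6, 29.6, 28.9 and 41.5 on plates and 68.0, 105, 86.6 and 84.0 in perfusion and rose by 1.44 ± 0.30. Neither overlapped between cultures, while miR-532-5p (0.00 ± 0.31), miR-532-3p (1.80 ± 0.84) and miR-660 (-0.16 ± 0.39) were not called. miR-500-3p, of the same cluster but outside the list, stood at -0.38 ± 0.33 and was not called.

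**Figure D3:**
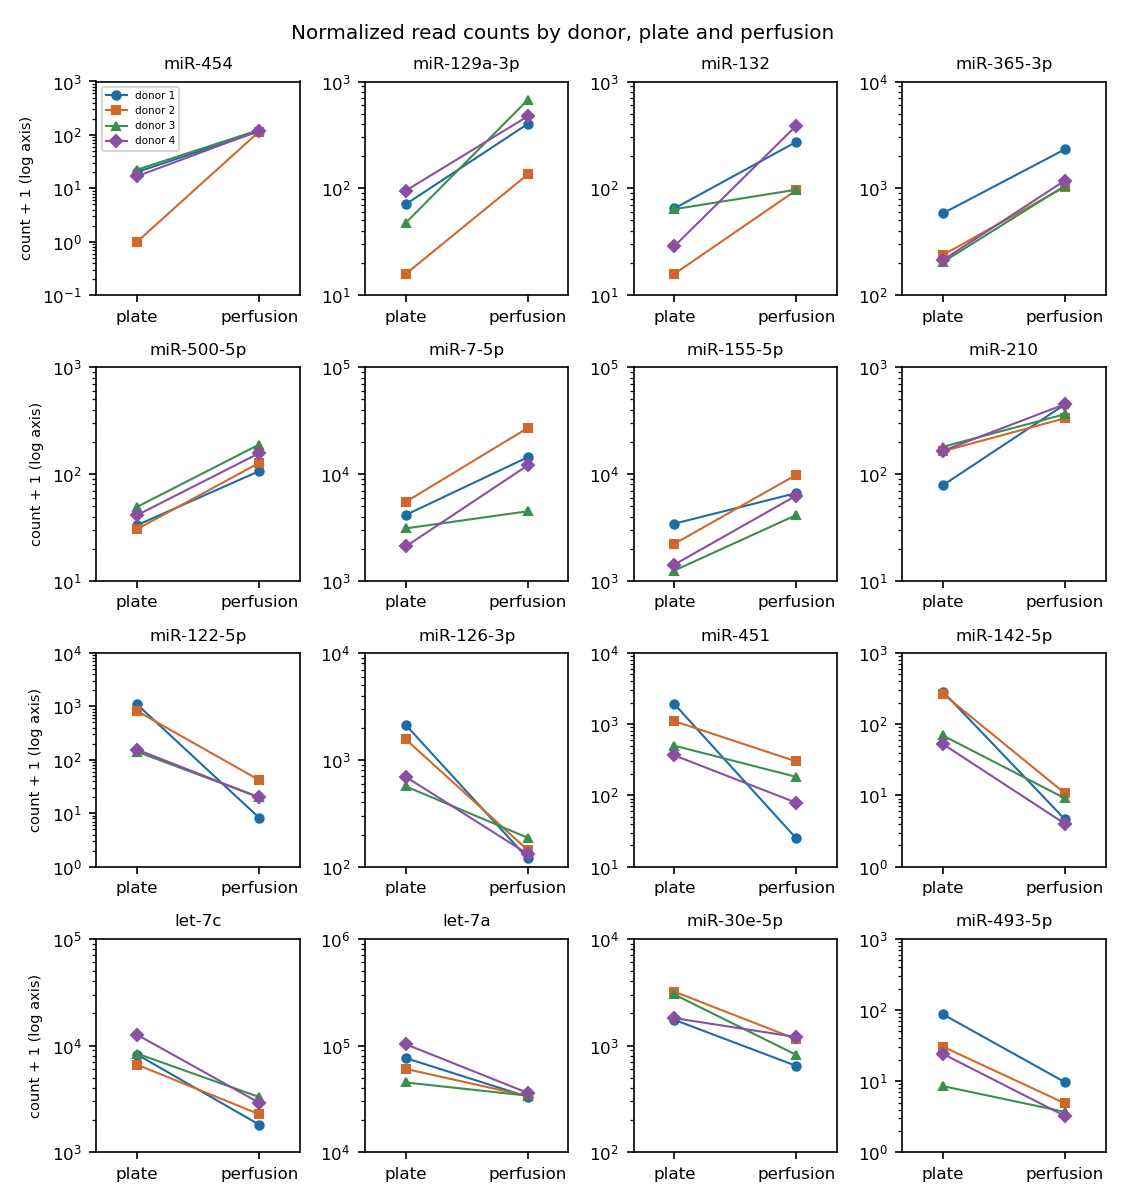
Normalized read counts + 1 of 16 miRNAs are drawn on log axes, with 1 line per donor joining its plate and perfusion library. Rising miRNAs fill the upper 8 panels and falling ones the lower 8, and in every panel all 4 lines run the same way.

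In the miR-17-92 cluster and its paralogues, which are switched on by MYC and promote proliferation, 4 of 9 were higher and none lower, with a median of 0.59. Over all 252 miRNAs 12.7% were called higher. miR-18a stood at 26.9, 9.85, 45.2 and 9.77 on plates and 65.8, 66.0, 85.2 and 63.7 in perfusion (1.84 ± 0.45), miR-20b at 58.4, 44.3, 128 and 51.3 on plates and 106, 128, 239 and 230.2 in perfusion (1.35 ± 0.30). Plate donor 3 was the highest plate library for both, and for miR-20b it stood above perfusion donor 1. miR-92a stood at 2113, 2532, 4708 and 3831 on plates and 5397, 5561, 5688 and 6295 in perfusion (0.87 ± 0.23), and miR-106a rose by 0.98 ± 0.31 with overlapping cultures. The differences of miR-17-5p (0.59 ± 0.29), miR-19a (-0.38 ± 0.30), miR-19b (0.46 ± 0.32), miR-20a-5p (-0.14 ± 0.28) and miR-363 (0.18 ± 0.29) were not called. miR-92b-3p, which has the miR-92a seed, stood at 137, 168, 175 and 161 on plates and 397, 361, 292 and 500.2 in perfusion and rose by 1.25 ± 0.26 (limma adjusted p = 0.00630). Calls ended for miR-18a without perfusion donor 2 (1.59), for miR-92a without plate donors 1 or 2 or perfusion donors 1, 2 or 4 (0.71 to 0.85), and for miR-106a without plate donors 1, 2 or 4 or perfusion donors 1, 2 or 4 (0.87 to 0.98), without the donor block or in a fit of the 8 libraries alone. None of 7 members of the miR-15/16 family, which restrains the cell cycle, was called, with a median of 0.36.

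Among the other rises, miR-149 stood at 117, 133, 101 and 124 on plates and 259, 282, 271 and 367 in perfusion (1.30 ± 0.26), miR-425-5p at 320.3, 232, 243 and 199 on plates and 525, 609.9, 457 and 559 in perfusion (1.13 ± 0.24), and miR-7857-3p at 151, 93.6, 173 and 122 on plates and 569, 179, 422 and 593 in perfusion (1.60 ± 0.29). All 3 were free of overlap. The remaining rises were smaller or rested on few reads: miR-6782-3p (1.75 ± 0.52), miR-1306-5p (1.25 ± 0.38), miR-151-5p (1.23 ± 0.30), miR-130b-5p (1.22 ± 0.36) and miR-424-3p (1.18 ± 0.37). Calls ended for miR-6782-3p without plate donors 1, 3 or 4 or perfusion donors 1 or 3 (1.23 to 1.87) or in a fit of the 8 libraries alone, for miR-1306-5p without plate donors 1 or 3 or perfusion donors 1, 2, 3 or 4 (0.98 to 1.42) or in a fit of the 8 libraries alone, for miR-151-5p without plate donor 3 or perfusion donors 2 or 3 (1.01 to 1.13), for miR-130b-5p without plate donors 1, 2 or 3 or perfusion donors 1, 2, 3 or 4 (1.03 to 1.29), and for miR-424-3p without plate donors 1, 2 or 3 or perfusion donors 1, 2, 3 or 4 (1.00 to 1.33) or in a fit of the 8 libraries alone.

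The rises at the lowest levels follow. miR-10390 was at 0 in every plate library and at 231, 8, 2 and 4 reads in perfusion, so that only donor 1 was clearly above the lowest reads listed. miR-491 and miR-10388 held nearly the same values in each library, between 6.14 and 10.7 in plate donors 1, 3 and 4, at 0 in plate donor 2 and between 13.7 and 28.4 in perfusion. miR-582-5p stood at 0, 0, 10.7 and 2.04 on plates and 10.1, 35.0, 12.2 and 15.0 in perfusion. Plate donor 3 lay above perfusion donor 1, so the cultures overlapped. Of these low miRNAs, the calls ended for miR-491 without plate donors 2, 3 or 4 or perfusion donors 1, 2, 3 or 4 (1.20 to 2.13), without the donor block, in a fit of the 8 libraries alone, with a pseudocount of 0.1 (2.70) or with the filter at 10, for miR-10388 without plate donors 2, 3 or 4 or perfusion donors 1, 2, 3 or 4 (1.28 to 2.16), without the donor block, in a fit of the 8 libraries alone, with a pseudocount of 0.1 (2.74) or in limma-voom (1.39), and for miR-582-5p without plate donors 1 or 2 or perfusion donors 1, 2 or 4 (1.99 to 2.72), without the donor block, with a pseudocount of 0.1 (4.54), with the filter at 10 or in limma-voom (2.12).

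Of 8 members of the let-7 family, which represses growth and stemness genes such as LIN28 and HMGA2, 2 were called, both lower. That share is near the 25.4% called of all 252 miRNAs, and 4 of the 8 differences lay below 0 and 4 above. let-7c stood at 8247, 6626, 8414 and 12633 on plates and 1819, 2277, 3299 and 2916 in perfusion. It fell in each donor without overlap, by 1.80 ± 0.28 on the log2 scale (limma adjusted p = 0.00155). let-7a stood at 76411, 60481, 45183 and 103077 on plates and 33185, 33674, 33953 and 36029 in perfusion: the perfusion libraries lay within a narrow range under all plate libraries. Its difference was -0.99 ± 0.25 (limma adjusted p = 0.0167), and the call ended without perfusion donors 1, 2 or 4 (-0.97 to -0.91). The other 6 members, let-7d-5p, let-7e, let-7f-5p, let-7g, let-7i-5p and miR-98, were not called, and the family median was -0.16. let-7 members differ by few bases, so reads could be split between them.

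In the miR-30 family, expressed in kidney, heart and bone-forming cells, miR-30e-5p stood at 1743, 3197, 3012 and 1808 on plates and 644, 1146, 816 and 1201 in perfusion and fell by 1.35 ± 0.27 on the log2 scale (limma adjusted p = 0.00630). miR-30b-5p went the other way, from 349, 453, 943 and 232 on plates to 668, 884, 1356 and 1156 in perfusion (1.18 ± 0.38). It was 0.72 without plate donor 4, and its call ended without plate donors 3 or 4 or perfusion donors 1, 2, 3 or 4 (0.72 to 1.38), without the donor block or with a pseudocount of 0.1 (1.18). The call of miR-30e-5p also ended in at least 1 alternative. The remaining 7 of the 9 family strands were not called. No member of the miR-29 family (4 strands, median 0.46), which represses collagens, or of the miR-181 family (3 strands, median 0.20) was called. Of the miR-30 family the median was -0.28.

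Of 14 bone and cartilage miRNAs 3 were lower and 1 higher, a share near the 25.4% of all miRNAs, with a median of -0.60. miR-140-3p, of the hairpin most specific to cartilage, stood at 1914, 8316, 4100.2 and 2660.1 on plates and 1199.6, 1762, 1469 and 1982 in perfusion (-1.20 ± 0.35), with plate donor 2 far above the others. Its difference without that library was -0.79. miR-26a, a repressor of EZH2, stood at 48560.3, 64383, 28210.3 and 84317 on plates and 21763, 34382, 31002 and 34631 in perfusion (-0.80 ± 0.27), and donor 3 ran against the rest. miR-320, which is made without Drosha, stood at 2676, 2532, 2723 and 3747 on plates and 1278, 1742, 1407 and 1756 in perfusion (-0.91 ± 0.29). Calls ended for miR-140-3p without plate donors 2 or 3 or perfusion donors 1, 2, 3 or 4 (-1.34 to -0.79), for miR-26a without plate donors 1, 2 or 4 or perfusion donors 1, 2 or 4 (-0.81 to -0.57), without the donor block, in a fit of the 8 libraries alone, with a pseudocount of 0.1 (-0.80) or under library totals (-0.73), and for miR-320 without plate donors 1, 3 or 4 or perfusion donors 1, 2, 3 or 4 (-1.03 to -0.70) or under library totals (-0.84). The osteogenic miR-204 (-0.62 ± 1.00), miR-196a (-0.58 ± 0.36) and miR-335 (-0.82 ± 0.42) were not called.

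In the imprinted DLK1-DIO3 cluster, a large group of hairpins expressed from the maternal chromosome, 4 of 9 strands were lower and none higher, with a list median of -1.16. Over all 252 miRNAs 12.7% were called lower. miR-493-5p stood at 86.0, 29.6, 7.54 and 23.2 on plates and 8.68, 3.88, 2.71 and 2.25 in perfusion, miR-493-3p at 61.4, 29.6, 9.42 and 20.4 on plates and 3.62, 15.5, 0 and 4.50 in perfusion. Both arms fell in all 4 donors, by 2.48 ± 0.50 and 2.50 ± 0.64 on the log2 scale, while donor 1 was the highest plate library and donor 3 the lowest. miR-432-5p stood at 33.0, 19.7, 15.1 and 8.96 on plates and 1.45, 3.88, 2.71 and 1.50 in perfusion (-2.50 ± 0.66) and miR-382 at 39.2, 14.8, 11.9 and 10.2 on plates and 1.45, 0, 0 and 2.25 in perfusion (-3.37 ± 1.02), with miR-382 at 0 in 2 perfusion libraries. These are low levels, and with a pseudocount of 10 the differences were -1.44, -1.26, -1.18 and -1.32. Calls ended for miR-493-5p without the donor block, for miR-493-3p without plate donor 3 or perfusion donors 1 or 3 (-2.28 to -1.87), without the donor block or with a pseudocount of 10 (-1.26), for miR-432-5p without plate donor 3 or perfusion donors 1 or 2 (-2.56 to -1.81) or with a pseudocount of 10 (-1.18), and for miR-382 without plate donors 1, 3 or 4 or perfusion donors 1, 2 or 3 (-3.51 to -2.83), without the donor block, with a pseudocount of 0.1 (-5.23) or with a pseudocount of 10 (-1.32). The more abundant miR-127 (-0.89 ± 0.51) and miR-411 (-1.16 ± 0.75) were not called.

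Other falls had no list of their own. miR-185 stood at 1973, 1990.4, 3154 and 4056 on plates and 1312, 1127, 1333 and 1166 in perfusion (-1.11 ± 0.30), and miR-152, of the family that represses the DNA methyltransferase DNMT1, at 5205, 7971, 9148 and 9163 on plates and 4644, 5012, 4066 and 4387 in perfusion (-0.77 ± 0.25). Both separated the cultures completely, though miR-152 by little, and miR-152 was the 1 of 4 family members called (family median -0.23). miR-3613 (-1.64 ± 0.43), miR-4334-3p (-1.28 ± 0.33), miR-628-5p (-1.22 ± 0.35) and miR-10a-3p (-1.92 ± 0.49, and -1.27 with a pseudocount of 10) were also lower. In the miR-10, miR-99, miR-100 and miR-125 family miR-100 rose and miR-10a-3p fell out of 8 strands, with a median of -0.03. That share is near the 25.4% called of all 252 miRNAs. Calls ended for miR-185 without plate donor 3 or perfusion donors 1, 2, 3 or 4 (-1.16 to -1.06), for miR-152 without plate donors 2, 3 or 4 or perfusion donors 1, 2, 3 or 4 (-0.87 to -0.63), in a fit of the 8 libraries alone or under library totals (-0.69), for miR-3613 without plate donors 1 or 3 or perfusion donors 1, 2 or 3 (-1.63 to -1.15), for miR-4334-3p without plate donor 1 or perfusion donors 1 or 2 (-1.23 to -0.97), for miR-628-5p without plate donors 1, 3 or 4 or perfusion donors 1, 3 or 4 (-1.29 to -1.001), and for miR-10a-3p without plate donors 3 or 4 or perfusion donors 1 or 2 (-1.95 to -1.65). Conversely, 9 miRNAs kept the cultures apart without being called. They include miR-22-3p, at 3529, 10459.5, 3579.5 and 4733 on plates and 2122, 2855, 2947 and 3462 in perfusion (-0.83 ± 0.30, limma adjusted p = 0.0617), and miR-98, at 2221, 1586, 2006 and 2216 on plates and 3238, 2325, 2975 and 2427 in perfusion (0.45 ± 0.23, limma adjusted p = 0.171).

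The next comparison set the 2 arms of a hairpin against each other within each library, which cancels any factor common to a library. Both arms of 53 hairpins were listed. In 13 of 53 (24.5%) the log2 ratio of the arms was called different between cultures, a family of tests added after the data were seen. Of those called in every alternative, miR-365 differed most: the log2 ratio of miR-365-5p to miR-365-3p was -3.75, -2.74, -3.72 and -3.11 on plates and -6.63, -6.59, -6.86 and -6.28 in perfusion. The 3p arm gained on the 5p arm in all 4 donors, a difference of -3.26 ± 0.61 (limma adjusted p = 0.00255). miR-365-5p itself stood at 42.2, 34.5, 14.4 and 23.6 on plates and 22.4, 9.71, 8.12 and 14.2 in perfusion and was not called (-1.02 ± 0.36).

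In miR-500 the leading arm changed. The log2 ratio of miR-500-5p to miR-500-3p was -1.58, -2.13, -0.96 and -1.65 on plates and 0.33, 0.92, 0.88 and 0.68 in perfusion, so that the 3p arm led on plates and the 5p arm in perfusion. The difference was 2.28 ± 0.41 (limma adjusted p = 0.00208), and miR-500-3p alone was at -0.38 ± 0.33. The ratio of miR-7134-5p to miR-7134-3p was -3.92, -5.51, -4.11 and -3.80 on plates and -1.36, -2.21, -1.40 and -1.97 in perfusion (2.60 ± 0.40, limma adjusted p = 0.00208). The 5p arm remained the rarer strand. miR-7134-5p rose from 27.7, 9.85, 15.7 and 42.7 on plates to 87.5, 56.3, 73.1 and 78.0 in perfusion. Its call ended without donor 3 in all 3 culture methods (1.63), while miR-7134-3p was at -0.84 ± 0.34 and was not called.

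let-7d and miR-214 moved towards their 3p arms. The ratio of let-7d-5p to let-7d-3p was 3.82, 4.10, 3.90 and 4.15 on plates and 2.49, 2.11, 3.03 and 2.43 in perfusion (-1.48 ± 0.26, limma adjusted p = 0.00208). let-7d-3p rose (1.13 ± 0.29) and let-7d-5p, at -0.35 ± 0.30, was not called. The ratio of miR-214-5p to miR-214-3p, strands of a hairpin of stromal cells, was -1.92, -1.73, -2.35 and -2.40 on plates and -3.31, -2.95, -3.54 and -3.28 in perfusion (-1.17 ± 0.21, limma adjusted p = 0.00208). These 5 hairpins held in every alternative run. The call for let-7d-3p alone ended without plate donors 2 or 3 or perfusion donors 2 or 4 (0.97 to 1.11), and that of miR-214-5p alone ended without plate donors 2, 3 or 4 or perfusion donors 1, 2, 3 or 4 (-0.995 to -0.77) or without the donor block.

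The other 8 called hairpins were miR-129a, miR-140, miR-143, miR-151, miR-30b, miR-331, miR-423 and miR-582, each lost in at least 1 alternative. Of 16 alternatives, the call held in 2 for miR-143, 5 for miR-30b and 9 for miR-140. It held in 13 for miR-151 and miR-582, 14 for miR-423 and 15 for miR-129a and miR-331. miR-140-5p against miR-140-3p differed by 1.30 ± 0.35, and miR-140-5p alone, at 0.10 ± 0.27, was not called. The call on the ratio ended without plate donors 2 or 3 or perfusion donors 1, 2 or 3 (0.97 to 1.25). miR-129a-5p against miR-129a-3p differed by -2.52 ± 0.55, and its call ended without perfusion donor 1 (-2.23). The ratio of miR-423-5p to miR-423-3p was -0.64, -0.09, -0.66 and -1.29 on plates and -2.24, -1.60, -1.44 and -2.10 in perfusion (-1.17 ± 0.29). The 3p arm led in all 8 libraries and led by more in perfusion. By contrast, both arms were called, and in the same direction, for 3 hairpins: miR-126, miR-142 and miR-493.

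Neighbouring hairpins, which can share 1 primary transcript, were compared in the same way. RefSeq's pig gene table (Sscrofa11.1) placed 223 of the 252 miRNAs by name, and 44 pairs of neighbours within 10000 bases were tested. The log2 ratio was called different in 18 of 44 (40.9%). In the miR-23a, miR-27a and miR-24 cluster, whose members regulate muscle, fat and bone differentiation, the order of miR-23a and miR-27a changed. The log2 ratio of miR-23a to miR-27a was -1.03, -1.63, -0.75 and -1.02 on plates and 1.02, 0.19, 1.37 and 0.73 in perfusion, a difference of 1.94 ± 0.28 (limma adjusted p = 0.000391).

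miR-23a itself stood at 6119, 5863, 4939 and 4134 on plates and 10744, 7673, 9731 and 11175 in perfusion (0.90 ± 0.30) and miR-27a at 12513, 18155, 8284 and 8405 on plates and 5286, 6707, 3758 and 6754 in perfusion (-1.03 ± 0.22). Neither overlapped between cultures. The third member, miR-24-3p, also made from the miR-23b cluster, stood at 18318, 29679, 9816 and 9953 on plates and 8046, 11266, 5692 and 9429 in perfusion (-0.86 ± 0.26). In the miR-23b cluster the ratio of miR-27b-3p to miR-23b was 3.59, 3.90, 4.31 and 3.16 on plates and 2.61, 2.53, 2.12 and 2.30 in perfusion (-1.35 ± 0.26, limma adjusted p = 0.00202). Both clusters thus shifted from the miR-27 to the miR-23 member. Over both clusters 1 of 8 strands was higher and 2 were lower, against 25.4% called in either direction of all 252, with a median of -0.54. The single calls ended for miR-23a without plate donors 3 or 4 or perfusion donors 1, 2, 3 or 4 (0.63 to 1.01) or with a pseudocount of 0.1 (0.90), and for miR-24-3p without plate donors 1, 2 or 3 or perfusion donors 1, 2 or 3 (-0.89 to -0.62) or without the donor block. miR-23a and miR-23b, like miR-27a and miR-27b-3p, are alike in all but a few bases, so a read may have been assigned to either. miR-24-3p, miR-92a and miR-365-3p have 2 gene loci each, so the transcript behind their levels cannot be told.

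let-7a against its neighbour miR-100 gave a log2 ratio of 0.44, 0.46, 1.00 and 1.60 on plates and -0.93, -1.32, -0.23 and -0.62 in perfusion (-1.65 ± 0.26, limma adjusted p = 0.000527). let-7a led on all plates and miR-100 in all perfusion libraries. let-7a has 2 gene loci, 1 of them far from miR-100, so its level need not come from this transcript. miR-221-3p against miR-222, a pair on the X chromosome that restrains the inhibitor p27, gave 2.30, 2.61, 2.47 and 2.14 on plates and 1.06, 1.29, 1.55 and 0.99 in perfusion (-1.16 ± 0.21, limma adjusted p = 0.00142). Here the ratio moved while neither member was called (miR-221-3p -0.09 ± 0.42, miR-222 1.07 ± 0.44). Within each culture the pair kept a similar ratio while its level ranged widely, from 4305 to 23851 for miR-221-3p on plates.

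Within the miR-17-92 cluster, miR-18a against miR-19a gave -0.73, -2.06, -0.32 and -2.01 on plates and 0.54, 0.82, 1.31 and 1.10 in perfusion (2.22 ± 0.45, limma adjusted p = 0.00212). miR-18a was the lower of the pair on every plate and the higher in every perfusion library. miR-500-3p against miR-362 differed by -1.83 ± 0.39, and miR-432-5p against miR-136-3p by -2.94 ± 0.66, where miR-136-3p never exceeded 10 normalized read counts. miR-99a-5p, of the miR-100 family, against its neighbour let-7c gave 0.57, 0.91, 0.68 and 2.03 on plates and 2.53, 2.42, 2.29 and 2.21 in perfusion (1.31 ± 0.34), and let-7c fell while miR-99a-5p, at -0.48 ± 0.38, was not called. The first 7 neighbour ratios held in every alternative run, and the other 11 were each lost in at least 1. Those 11 held in 3 (miR-425-5p against miR-191) to 15 (miR-99a-5p against let-7c) of 16 alternatives. miR-451 against miR-144 was among the latter, at 1.50 ± 0.56 and -0.57 with a pseudocount of 10, with 3 of 4 donors in that direction.

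**Figure D4:**
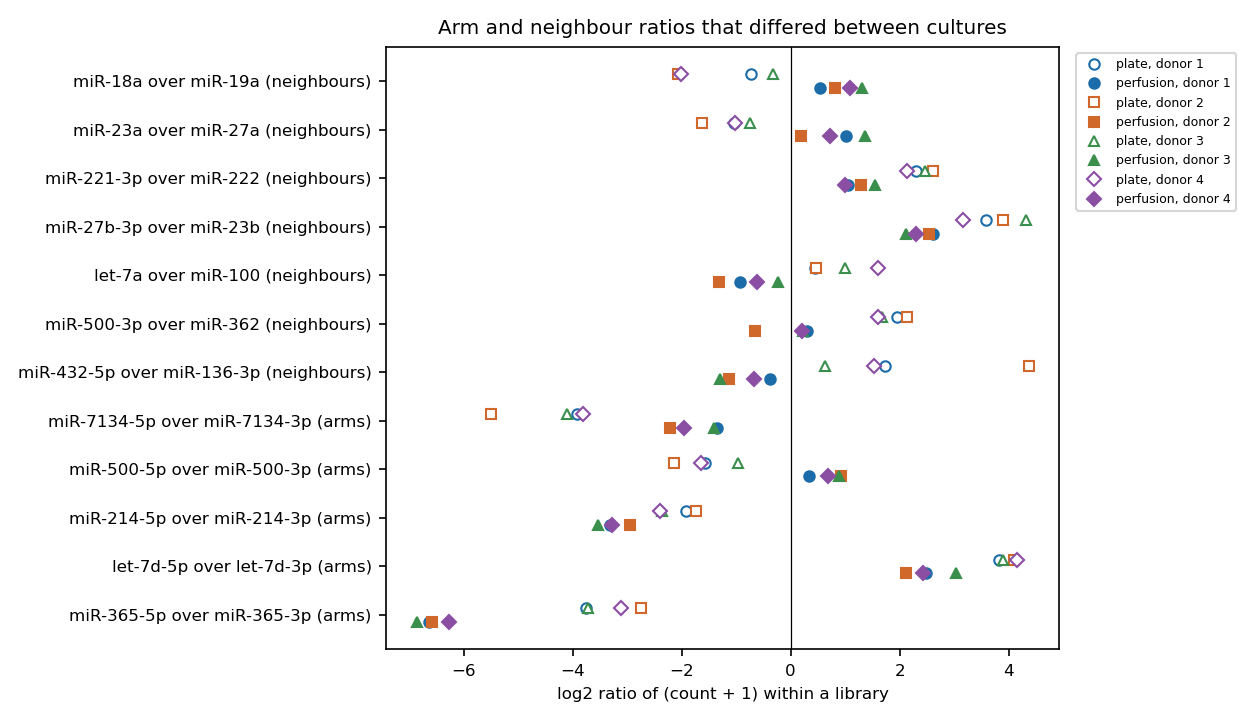
Log2 ratios of 2 miRNAs within a library are shown for the 5 arm pairs and 7 neighbour pairs whose difference was called in every alternative, open symbols for plates, filled for perfusion, and 1 shape per donor. In each row the open and filled symbols occupy separate ranges, and miR-23a over miR-27a, let-7a over miR-100 and miR-500-5p over miR-500-3p are among those that cross 0.

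Donors differed in how far they moved. Of the 64 calls, 23 were called in all 21 alternatives, 14 higher and 9 lower in perfusion. The 23 include miR-10390, at 0 on all plates and at 2 and 4 reads in perfusion donors 3 and 4. They also include miR-223, without reads in any perfusion library. Among the falls of the 23, donor 1 changed most: miR-122-5p differed by -7.05 in donor 1 and by -2.98 in donor 4, miR-486 by -6.72 and -4.07, and miR-451 by -6.27 and -2.21. Donor 3 changed less than donor 4 in each of these miRNAs, so the pairs are not full ranges. let-7c varied less, from -2.18 to -1.35. Among the rises, miR-500-5p (1.68 to 2.06) and miR-149 (1.08 to 1.56) were the most even across donors, and miR-132 ranged from 0.61 to 3.75. The median size of the donor differences over the 64 calls was 1.67, 1.55, 1.43 and 1.70 in donors 1 to 4, against 0.67, 0.78, 0.62 and 0.81 over all 252. The 64 were chosen on these same differences, so their larger size is no separate support for the calls. Without plate donor 3 or perfusion donor 1 the total was 37 calls, without perfusion donor 2 it was 35, and without perfusion donor 4 it was 42.

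**Figure D5:**
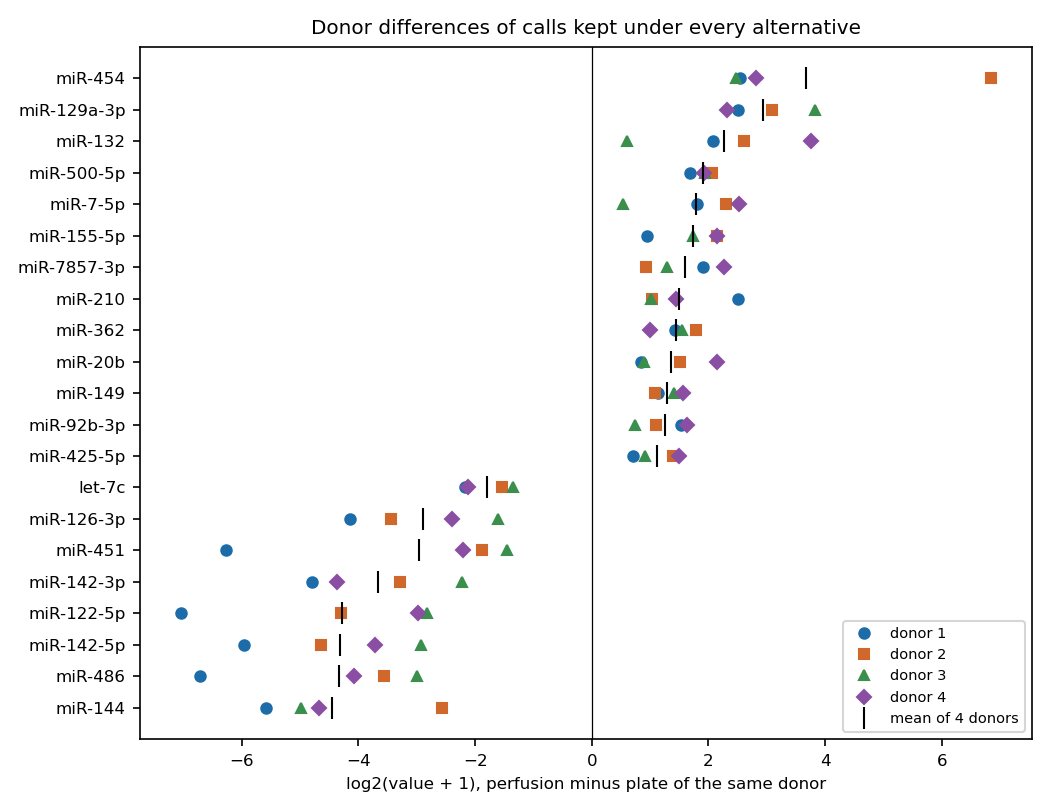
For the miRNAs called in every alternative and above 0 in both cultures, each symbol is 1 donor's log2 difference, perfusion minus plate, and the bar is the mean of the 4. The rises lie right of 0 and the falls left of it in all 4 donors. Donor 1 lies furthest left for miR-122-5p, miR-486, miR-451, miR-142-5p, miR-142-3p, miR-126-3p and miR-144.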

How the data were processed

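Small RNA from the vesicles was extracted with the miRNeasy Micro kit and made into libraries with the NEBNext small RNA set, per the labels' protocols. Bowtie is named in the submitters' processing notes, while the build, the miRNA annotation and Bowtie's version are unstated in those notes and labels. Per the file headers, the authors' values are normalized read counts per mature miRNA, a signal: in each library they are whole multiples of 1 step, within a tolerance of 0.001 reads, and dividing by the step gave the reads. No value had to be dropped or imputed, and 0 columns belonged to other samples.

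Values were tested as log2(value + 1) with limma 3.58.1 under R 4.3.3 (prior variance set by mean level) on all 12 libraries of the 3 culture methods, with culture and donor as terms and a filter of 1 or more in at least 4 libraries, which all 252 miRNAs passed. The pseudocount understates the change of low miRNAs listed above 0. Where a library lists 0, the pseudocount and the depth set much of the change. In plate donor 2, 1 read stood for 4.93 normalized read counts, so a 0 there can overstate a rise. Only the contrast perfusion minus plate was read, two-sided, with Benjamini-Hochberg adjustment over all 252 and a threshold of 0.05. Same-numbered libraries come from the same animal, and the deviations of each donor's plate and perfusion library from their group means correlated at 0.17, 0.27, 0.34 and 0.16. Perfusion donors 1, 2 and 3 correlated best with the plate library of their own number, but perfusion donor 4 did so with plate donor 3. Log2 ratios of 2 arms and of neighbouring hairpins went through the same fit, adjusted over the 53 and the 44 pairs, and were added after seeing the data.

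The members, the 24 lists and the tests were chosen with earlier results of these data known. Named are the 15 largest rises and falls of calls with 1 sign in all donors, the 10 most abundant miRNAs, called list members and the other arms. Grouping by seed was not applied, since no sequence table was used. The other calls and the not-called miRNAs named beside them were chosen after their values were seen. A self-test on simulated data drew 252 miRNAs with 50 changed in 20 draws: changes of 2-fold were called in 34.75%, of 4-fold in 97% and of 8-fold in 100%, and 4.97% of calls were false. The changed miRNAs were drawn only from those with a plate mean of 50 or more. All miRNAs were given the same spread between libraries, which was set in advance and not estimated from these data. These rates therefore do not describe calls at lower levels. Every 8-fold change drawn was a rise, so the 100% does not cover falls of that size. Intervals of counting error are not given: reads carry no molecular identifiers. Python 3.11.15 with NumPy 2.4.6, SciPy 1.17.1, pandas 2.3.3 and matplotlib 3.10.9 did the rest.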

Additional observations from a re-analysis of the deposited data

Results flagged for a closer look

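In 178 groups of 4 libraries checked, 14 had a highest or lowest library whose gap to its nearest neighbour took a larger share of the group's range than Dixon's 95% critical value for 4 allows. Chance flags about 1 in 20 groups. Plate donor 1 stood high for miR-382 (39.2), miR-365-3p (582), miR-126-5p (61.4) and miR-144 (117), and low for miR-210 (77.6). Perfusion donor 1 stood high for miR-365-3p (2318) and miR-10390 (167). Plate donor 2, the library with the fewest reads, stood high for miR-582-3p (19.7). Plate donor 3 stood high for miR-143-5p (533) and miR-20b (128). Plate donor 4 stood high for miR-320 (3747), let-7f-5p (96295) and miR-151-5p (154). Perfusion donor 3 stood high for miR-18a (85.2). All values are normalized read counts, and the causes were not tested.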

How the results depend on the processing

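Among the 64 calls, 23 held in all 21 alternatives and 28 with any single library left out. The 23 include miR-10390 and miR-223, each at 0 in every library of 1 culture. Leaving out 1 library or 1 donor gave 31 to 59 calls, 16 to 32 of them higher and 15 to 30 lower, 5 to 15 called arm ratios and 8 to 19 called neighbour ratios. The donors pair the libraries, and without the donor block limma called 52 miRNAs, 26 higher and 26 lower, all of them among the 64, with 13 arm and 16 neighbour ratios. The 12 calls made only with the block were miR-491, miR-30b-5p, miR-100, miR-106a, miR-382, miR-10388, miR-214-5p, miR-26a, miR-582-5p, miR-24-3p, miR-493-5p and miR-493-3p. Counts under the other alternatives ran from 50 calls (no block, 8 libraries alone) to 75 (limma-voom on the reads). Scaling by library totals moved the median over all 252 log2 fold changes from -0.06 to 0.01 and the split to 33 higher and 29 lower. With a pseudocount of 10 the ratio of miR-451 to miR-144 turned to -0.57; at levels near 0 the pseudocount sets much of such a ratio. Without donor 3 in all 3 culture methods 33 of the 64 calls were lost, and for miR-27a, miR-365-3p and miR-7134-5p this was the 1 alternative that ended the call. The planned edgeR and DESeq2 alternatives were not run, since the deposited values are scaled. Plate donor 2 had the fewest reads, 264407, and 28 miRNAs at 0, which limits values of a few reads there.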
